A study of Homo sapiens with 20 samples.

Results

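The Sprouty, SPRED and MIG6 genes are feedback inhibitors of receptor tyrosine kinase signalling, and 7 of them are described here, SPRY1, SPRY2, SPRY4, SPRED1, SPRED2, SPRED3 and ERRFI1, the gene that encodes MIG6. They were taken by gene symbol from the 60271 genes of the deposited tables. All 7 passed the filter on low counts, which left 16522 genes to test. RNA was sequenced from MDA-MB-468, a human triple negative breast cancer cell line of epithelial origin in which the EGF receptor gene is known to be amplified. The 5 groups, each of 4 biological replicates (20 libraries), were an untreated control and cells held in EGF at 50 ng/mL for either 12 h, 24 h, 48 h or 72 h to induce epithelial-mesenchymal transition. All groups, the control included, were serum-starved for 24 h and carry the same genetic background of 1 cell line. By the labels, they were seeded and harvested together, with only the time at which EGF was added setting them apart. How a shared harvest fits with an equal starvation before EGF is not stated, so the total time without serum may differ between groups. The labels do not say whether EGF was added again during the longer treatments.

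When EGF binds its receptor, adaptor proteins recruit SOS, which loads RAS with GTP, and RAF, MEK and ERK are then activated in turn. Sprouty proteins act upstream of or at RAS and RAF, SPRED proteins bind neurofibromin and bring it to RAS at the membrane, and MIG6 binds the kinase domain of the EGF receptor itself and promotes its removal from the cell surface. Several of these genes are known to be transcribed in response to ERK activity, which closes a negative feedback loop around the receptor.

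Expression was counted in 15611961 to 25856953 reads assigned to genes per library. The share of mitochondrial reads was 9.03% to 12.6% in control, 7.69% to 11.3% at 12 h, 11.1% to 13.8% at 24 h, 9.83% to 16.9% at 48 h and 12.3% to 16.4% at 72 h, and the highest was that of 48 h replicate 2. The summed level of 5 epithelial markers (EPCAM, KRT8, KRT18, KRT19 and CDH1) was 1408 to 1774 CPM (reads of a gene scaled to a common library total) in control, 6865 to 7332 CPM at 12 h, 3453 to 4275 CPM at 24 h, 1555 to 1696 CPM at 48 h and 2186 to 2589 CPM at 72 h. KRT18 was the largest part of that sum, at 788 ± 84.4 CPM (SD, n = 4) in control and 5136 ± 150 CPM at 12 h. The adhesion proteins EPCAM and CDH1 took another course, since CDH1 went from 127 ± 16.5 CPM in control to 181 ± 4.90 CPM at 12 h and 90.6 ± 5.49 CPM at 72 h, and EPCAM from 181 ± 11.4 to 215 ± 8.69 and 144 ± 6.59 CPM. The hormone receptor ESR1 stayed at or under 6.53 CPM and PGR was at 0 CPM in every library. Of the markers of other cell types, PTPRC, CD3E, COL3A1, DCN, LUM, VWF and CDH5 did not exceed 0.440 CPM in any library. The summed fibroblast list, of which COL1A1 alone passed the filter, ranged from 5.05 to 7.90 CPM in control and from 13.1 to 14.9 CPM at 72 h. The summed leukocyte list, in which only CD68 passed, ranged from 0.854 to 1.75 CPM in control and from 23.7 to 28.4 CPM at 72 h. The summed endothelial list, in which only PECAM1 passed, ranged from 0.478 to 5.48 CPM over all libraries. The part of these shifts in the member results was not tested. Fewer cells expressing a gene and less of its RNA per cell cannot be told apart in these bulk samples.

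The members lie on different chromosomes. By the GENCODE 29 annotation of GRCh38, ERRFI1 (ENSG00000116285) spans chr1:8004404-8026308, SPRY1 (ENSG00000164056) chr4:123396795-123403760, SPRY4 (ENSG00000187678) chr5:142310427-142326455, SPRY2 (ENSG00000136158) chr13:80335976-80340951, SPRED1 (ENSG00000166068) chr15:38252326-38357249, SPRED2 (ENSG00000198369) chr2:65310851-65432637 and SPRED3 (ENSG00000188766) chr19:38388421-38399587. SPRY1, SPRED1 and SPRED3 are on the forward strand and the other 4 on the reverse strand. Exons of ERRFI1 share 155 bases, 3.70% of its exonic length, with the antisense gene AL034417.4, and no other member shares exonic bases with another gene. Whether the counting used strand is not given in the sources used here.

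The 200 bases upstream of an annotated RefSeq start (GRCh38.p14) are printed for the 3 genes that rose together and for SPRY1, the member that was lower than control from 24 h on. SPRY1 and SPRY2 have other annotated starts that are not printed, so the sequences shown are not a comparison of the genes. Capitals mark the letters of a searched motif, GGGCGG (a GC box, on either strand, so that CCGCCC is its reverse complement) and, in ERRFI1, overlapping copies of TATATA. The ERRFI1 sequence is chr1:8026310-8026509 (reverse strand), that of SPRY2 chr13:80341127-80341326 (reverse strand), that of SPRY4 chr5:142324248-142324447 (reverse strand) and that of SPRY1 chr4:123396595-123396794 (forward strand).
ERRFI1: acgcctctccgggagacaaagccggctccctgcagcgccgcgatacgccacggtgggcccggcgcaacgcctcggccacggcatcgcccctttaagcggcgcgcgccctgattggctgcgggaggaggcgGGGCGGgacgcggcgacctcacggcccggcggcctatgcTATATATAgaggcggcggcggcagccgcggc
SPRY2: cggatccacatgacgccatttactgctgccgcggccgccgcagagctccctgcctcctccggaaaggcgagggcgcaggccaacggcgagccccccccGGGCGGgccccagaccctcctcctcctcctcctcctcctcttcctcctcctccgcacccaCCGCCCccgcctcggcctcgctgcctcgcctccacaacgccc
SPRY4: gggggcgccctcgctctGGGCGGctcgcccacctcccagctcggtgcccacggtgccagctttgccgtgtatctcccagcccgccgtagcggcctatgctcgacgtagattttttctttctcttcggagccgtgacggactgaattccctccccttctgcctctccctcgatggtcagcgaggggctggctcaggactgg
SPRY1: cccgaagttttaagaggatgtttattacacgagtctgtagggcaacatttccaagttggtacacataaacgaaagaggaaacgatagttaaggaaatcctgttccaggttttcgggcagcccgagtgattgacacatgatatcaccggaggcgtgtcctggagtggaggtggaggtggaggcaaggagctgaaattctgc

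The 7 members have 12 annotated promoters of 300 bases in RefSeq (250 before and 50 after each start), and 6 motifs were searched on both strands of each. GGGCGG was found in 8 of the 12, against 45.0% of 34961 promoters. The upstream SPRY1 start, printed above, had none of the 6 motifs, while the downstream SPRY1 start held GGGCGG at -140 and -24 (first base). Of the SPRY2 promoters not printed, that at chr13:80340059-80340358 had none of the 6 motifs, and that at chr13:80339610-80339909 held GGGCGG at 24. TATATA was found in 1 of the 12, the ERRFI1 promoter, against 4.00% of all, and its copies span bases -31 to -24. Positions are counted with the base before the start as -1. TGANTCA, the binding letters of AP-1 factors, was found in 2 of the 12 (7.68% of all), 1 each in SPRED2 and SPRED3. CCGGAAG, a core of ETS factor sites, was found in 1 (10.3% of all), the downstream SPRY1 promoter. TGACGTCA, the cyclic AMP response element, and the CArG box of serum response factor were found in none (1.85% and 1.3% of all). These are matches of letters in a fixed window, and TATATA and GGGCGG were chosen after the sequences had been seen.

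EGF raised ERRFI1, SPRY2 and SPRY4 at every time point, by 13.9-fold, 11.3-fold and 8.46-fold at 12 h, while SPRY1 was lower than control from 24 h on. Among the SPRED genes, SPRED1 was higher at all 4 times by at most 1.70-fold, SPRED2 rose by at most 1.33-fold, and SPRED3, at a very low level, passed the test at 12 and 72 h. At 12 h, 6 of the 7 members were higher and none lower (edgeR quasi-likelihood test, Benjamini-Hochberg adjusted p under 0.05), where 69.4% of all genes tested passed in either direction and 32.9% passed as higher. The share of all genes that passed as lower at 12 h was 36.5%. This count depended on the scaling, with 4 members higher and 1 lower at 12 h by library size alone and 6 higher and 1 lower by upper quartile, where the share of called genes that were higher went from 47.4% to 30.2% and 37.2%. At 24 h that share went from 49.6% to 36.3% by library size, with 4 members higher and 1 lower. At 24 h, 5 members were higher and 1 was lower, where 58.8% of all genes passed, 29.2% as higher and 29.6% as lower. At 48 h, 4 members were higher and 1 was lower, beside 45.8% of all genes (24.0% higher, 21.8% lower), and the 72 h libraries had 6 members higher and 1 lower, beside 61.6% of all genes (30.6% higher, 31.0% lower). Most genes tested thus passed after 12, 24 and 72 h of EGF, and the counts of members are to be read against that background. The median log2 fold change of the 7 members was 0.67 (12 h), 0.76 (24 h), 0.49 (48 h) and 0.66 (72 h), against -0.054, -0.0071, 0.0099 and -0.0090 over all genes tested. Libraries of the treated and control groups did not overlap for 6 members after 12 h, 6 after 24 h, 4 after 48 h and 7 after 72 h, against 60.8%, 48.2%, 34.9% and 52.0% of all genes. The 4 comparisons share the same control libraries, so they are not independent of each other.

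**Figure D1:**
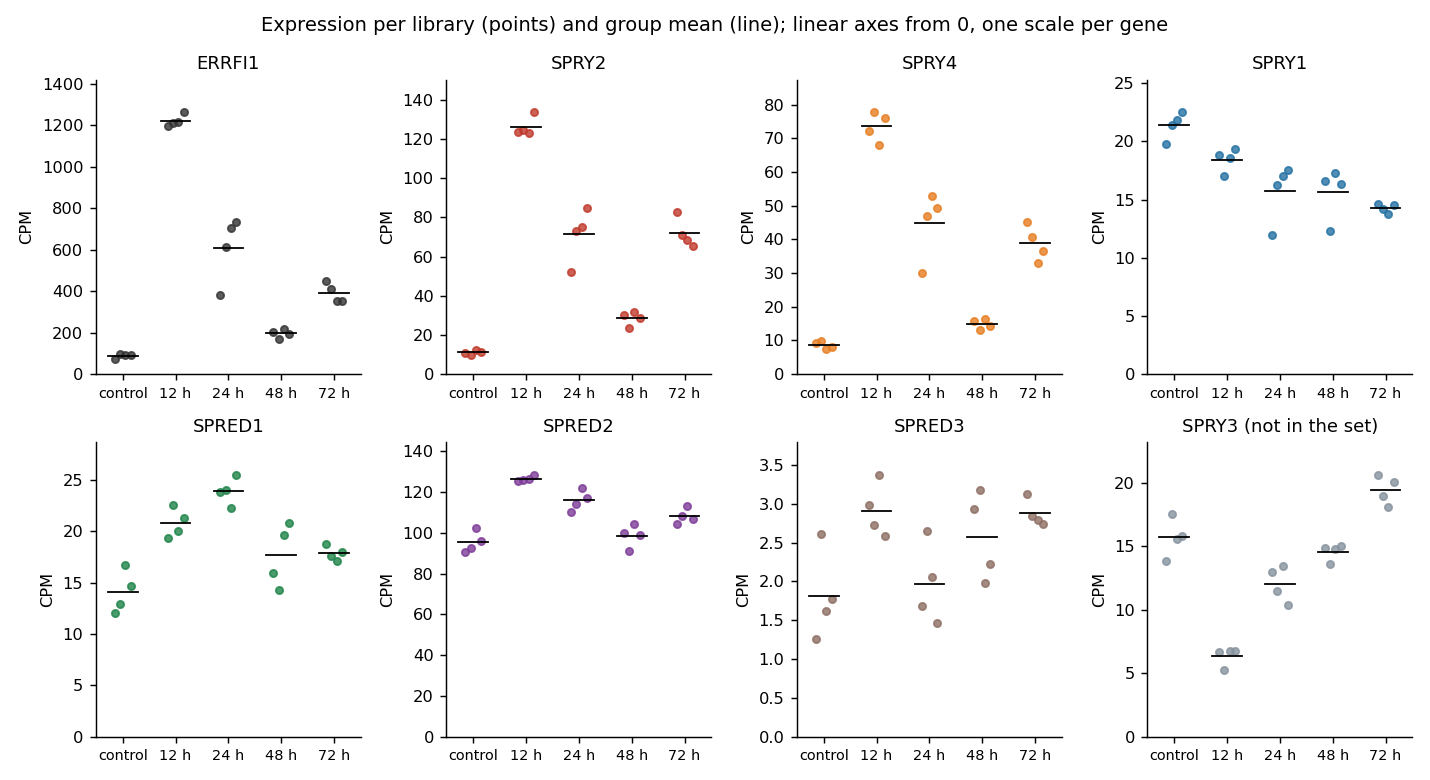
Expression of the 7 members and of SPRY3 in CPM (linear axes from 0, a separate scale for each gene) in the control and the 4 EGF groups (x axis), with a point per library and a line at the mean of 4 libraries. ERRFI1, SPRY2 and SPRY4 were highest at 12 h, lower at 48 h and higher again at 72 h, whereas SPRY1 was highest in control.

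ERRFI1 encodes the inhibitor that acts on the EGF receptor kinase itself, and it had the largest fold change of the set at 12 and 24 h. Its level was 74.3, 95.1, 91.7 and 90.0 CPM in the 4 control libraries (replicates 1 to 4, an order kept throughout), 1199, 1210, 1215 and 1262 CPM at 12 h, and 381, 615, 705 and 733 CPM at 24 h. By 48 h it was 204, 172, 218 and 195 CPM and at 72 h 451, 411, 350 and 354 CPM. Every treated library lay above every control library, and the 48 h libraries lay below all other treated libraries. Against a control mean of 87.8 ± 9.20 CPM (SD, n = 4), the means were 1221 ± 28.1 CPM at 12 h, 609 ± 160 CPM at 24 h, 197 ± 19.4 CPM at 48 h and 391 ± 48.2 CPM at 72 h.

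The log2 fold changes of ERRFI1 were 3.80 ± 0.16 (SE), 2.79 ± 0.15, 1.17 ± 0.15 and 2.16 ± 0.15, with edgeR adjusted p-values of 3.76e-14, 3.93e-12, 1.89e-06 and 1.38e-10. Of the 16522 genes, 171 had a larger log2 fold change after 12 h of EGF, 417 after 24 h, 1464 after 48 h and 923 after 72 h. ERRFI1 differed between all 6 pairs of EGF times, so its order of levels, 12 h, 24 h, 72 h, 48 h and control, held at each step, although libraries of 24 and 72 h overlapped (log2 difference -0.64, edgeR adjusted p = 0.0014; -0.81 without EGF 24 h replicate 1; -0.63, adjusted p = 0.0567, with only the libraries compared). The 24 h spread came mostly from replicate 1, and without that library the 24 h log2 fold change was 2.97 (edgeR adjusted p = 1.22e-16).

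SPRY2 encodes the Sprouty protein best known as an intracellular brake on growth factor signalling that is itself bound by the ubiquitin ligase CBL. It measured 10.9, 9.96, 12.5 and 11.4 CPM in control and 124, 125, 123 and 134 CPM at 12 h. The levels were then 52.3, 73.3, 75.1 and 84.6 CPM at 24 h, 30.3, 23.7, 31.9 and 28.6 CPM at 48 h, and 82.9, 71.3, 68.5 and 65.2 CPM at 72 h. All 16 treated libraries exceeded all controls, and the 72 h libraries lay within the range of the 24 h libraries. SPRY2 therefore rose from 11.2 ± 1.04 CPM (SD, n = 4) to 126 ± 4.91 CPM at 12 h, and stood at 71.3 ± 13.6, 28.6 ± 3.53 and 72.0 ± 7.68 CPM afterwards.

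Its log2 fold changes were 3.50 ± 0.13 (SE), 2.67 ± 0.12, 1.36 ± 0.12 and 2.69 ± 0.12 (edgeR adjusted p = 4.86e-17, 6.84e-15, 3.42e-09 and 4.49e-15). Only 212 of the genes tested rose more at 12 h. At 48 and 72 h the SPRY2 fold change was the largest of the 7 members. Between EGF times, 5 of the 6 pairs differed, and the exception was 72 h against 24 h, with a log2 difference of 0.015 ± 0.11 (SE; edgeR adjusted p = 0.931; -0.11, adjusted p = 0.376, without EGF 24 h replicate 1).

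SPRY4, a further Sprouty gene, followed the same course at a lower level. It measured 9.34, 9.88, 7.51 and 8.03 CPM in control, 72.2, 77.7, 68.1 and 76.1 CPM at 12 h and 30.2, 47.0, 52.8 and 49.4 CPM at 24 h. At 48 h it fell back to 15.8, 13, 16.4 and 14.2 CPM, still above all 4 controls, and at 72 h it was 45.2, 40.6, 32.9 and 36.6 CPM. Replicate 1 at 24 h lay under all 72 h libraries, and the other three 24 h libraries lay above them.

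The SPRY4 means were 8.69 ± 1.11 CPM (SD, n = 4) in control and 73.5 ± 4.28, 44.8 ± 10.1, 14.9 ± 1.54 and 38.8 ± 5.27 CPM after EGF. These gave log2 fold changes of 3.08 ± 0.14 (SE), 2.36 ± 0.14, 0.77 ± 0.15 and 2.16 ± 0.14 (edgeR adjusted p = 7.91e-15, 1.33e-12, 1.42e-04 and 5.39e-12). As for SPRY2, only 72 h against 24 h did not pass among the pairs of EGF times (log2 difference -0.20 ± 0.13 SE, edgeR adjusted p = 0.224). That rests on replicate 1 at 24 h, without which SPRY4 was lower at 72 h than at 24 h (-0.36, edgeR adjusted p = 0.0083). Replicate 1 at 24 h was the lowest of its group for 5 members, ERRFI1, SPRY1, SPRY2, SPRY4 and SPRED2, and replicate 2 at 48 h, the library with the highest mitochondrial share, for 6 members, all but SPRED3. Without replicate 1 at 24 h, the log2 fold changes were 2.80 for SPRY2 and 2.52 for SPRY4.

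**Figure D2:**
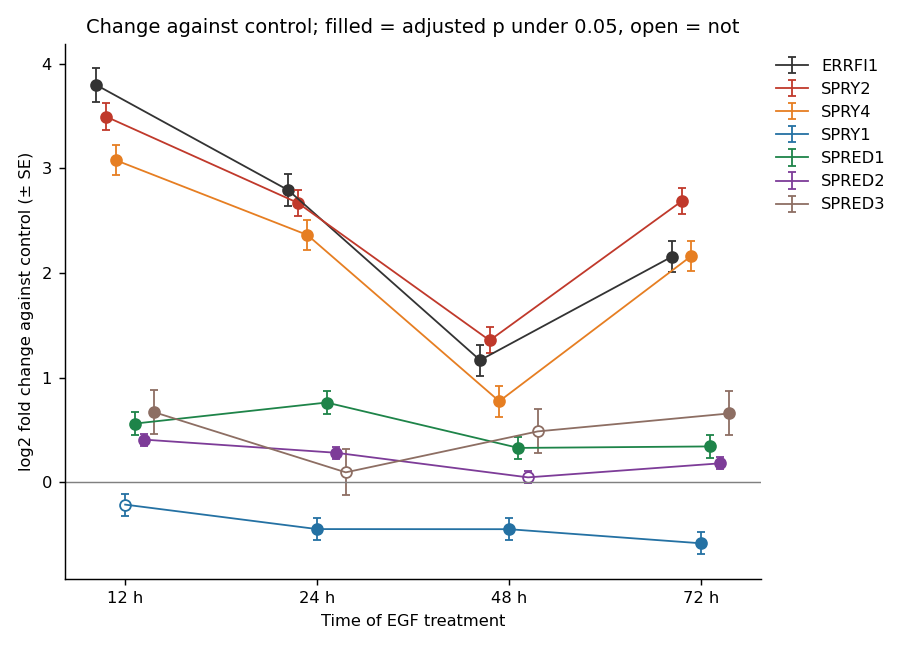
The log2 fold change against control (y axis, ± SE from edgeR) at each EGF time (x axis) for the 7 members, with filled points where the adjusted p was under 0.05 and open points where it was not. ERRFI1, SPRY2 and SPRY4 lay between 0.77 and 3.80 with their lowest point at 48 h, and SPRY1 lay below 0 at every time.

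SPRY1, the Sprouty gene with the highest level per kilobase in control, moved the other way. Its libraries read 19.8, 21.4, 21.9 and 22.5 CPM in control and 18.8, 17.1, 18.6 and 19.3 CPM at 12 h. They read 12.0, 16.3, 17.0 and 17.6 CPM at 24 h, 16.6, 12.3, 17.3 and 16.4 CPM at 48 h, and 14.6, 14.2, 13.7 and 14.5 CPM at 72 h. No treated library reached the lowest control, although the gap at 12 h was small.

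SPRY1 fell by 0.45 on the log2 scale by 24 h, by 0.45 by 48 h and by 0.58 by 72 h (SE 0.11 each; edgeR adjusted p = 9.07e-04, 0.00124 and 5.14e-05), the last from 21.4 ± 1.15 to 14.3 ± 0.403 CPM (SD, n = 4), a 1.5-fold difference. At 12 h the log2 fold change was -0.21 ± 0.11 (SE), with an edgeR adjusted p of 0.0743. That value passed when libraries were scaled by their size alone, to -0.50 (edgeR adjusted p = 1.65e-04), a scaling that also moved the median of all genes at 12 h by -0.28. It also passed by upper quartile (-0.38, edgeR adjusted p = 0.00176), with at least 10 counts in every library (-0.25, adjusted p = 0.0325), with only the libraries compared (-0.20, adjusted p = 0.0425), and without EGF 24 h replicate 1 (-0.21, adjusted p = 0.0386) or EGF 48 h replicate 2 (-0.21, adjusted p = 0.0455), which enter through the shared spread. No neighbouring groups in the order of SPRY1 levels, control, 12 h, 24 h, 48 h and 72 h, differed, and among the EGF times only 72 h against 12 h did (-0.37 ± 0.11 SE, edgeR adjusted p = 0.00441). That call was lost by library size (-0.16, edgeR adjusted p = 0.189) and by upper quartile (-0.23, adjusted p = 0.0509).

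SPRY3, the Sprouty gene outside the set, was counted for comparison, and since it has a copy in the pseudoautosomal region its counts are uncertain. It fell from 15.7 ± 1.5 CPM (SD, n = 4) in control to 6.38 ± 0.733 CPM at 12 h and was 12.1 ± 1.43, 14.6 ± 0.647 and 19.5 ± 1.13 CPM later. Its log2 fold changes were -1.30, -0.38, -0.11 and 0.31, with edgeR adjusted p-values of 8.11e-11, 0.00171, 0.362 and 0.00724, so it was lower at 12 and 24 h and higher at 72 h.

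The makeup of the Sprouty transcripts changed as SPRY2 and SPRY4 rose. Expressed per kilobase of merged exons, which allows genes of unequal length to be compared, the summed level of SPRY1 to SPRY4 was 12.1 ± 0.431 CPM per kb (SD, n = 4) in control and 58.1 ± 2.12 CPM per kb after 12 h, 35.6 ± 6.46 after 24 h, 17.3 ± 2.01 after 48 h and 35.4 ± 3.37 after 72 h. SPRY1 made up 44.4% ± 1.00 of that sum in control and 8.0% ± 0.399 at 12 h, with 11.2% ± 0.271, 22.8% ± 0.904 and 10.2% ± 0.797 at the later times. The level of SPRY1 itself was 5.40 ± 0.291 CPM per kb in control and 4.65 ± 0.246 CPM per kb at 12 h, where its test did not pass. The share of SPRY2 took the opposite course to that of SPRY1, from 30.3% ± 2.43 in control to 71.5% ± 0.471 at 12 h. It was the largest share in every treated library.

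The SPRY4 share was 10.9% ± 1.68 in control, 19.3% ± 0.888 at 12 h and 13.1% ± 0.544 at 48 h. The SPRY3 share was 14.3% ± 1.18 in control and 1.22% ± 0.141 at 12 h. These shares rest on the annotated exons, since the transcripts that the cells used are not known here.

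**Figure D3:**
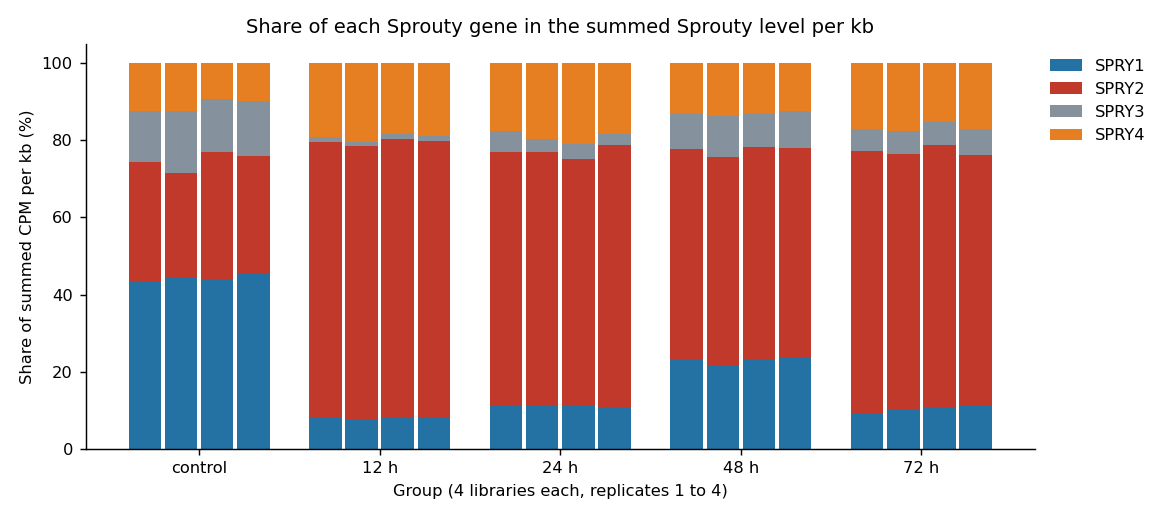
Share of each of SPRY1, SPRY2, SPRY3 and SPRY4 in the summed Sprouty level per kb (y axis, %, from 0 to 100) in each of the 20 libraries, which are grouped by treatment on the x axis. SPRY1 was the largest share in the 4 control libraries (43.3% to 45.7%) and SPRY2 in all treated libraries (54.2% to 72.0%).

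Ratios of the counts of 2 members within a library do not depend on how libraries are scaled, and 6 pairs were compared at 4 times with exact two-sided permutation tests of 4 against 4 libraries. The smallest p such a test can give is 0.0286. After adjustment over the 24 tests it became 0.0429 here, a value that depends on how many of the tests reached that smallest p. The pairs were chosen with earlier results of these data known, so these p-values are not independent support for the changes of the single genes. The log2 ratio of SPRY1 to SPRY2 was 0.94 ± 0.13 (SD, n = 4) in control and -2.78 ± 0.069 at 12 h, a 13.1-fold shift (exact permutation p = 0.0286, adjusted 0.0429), and it remained 8.65-fold, 3.51-fold and 9.6-fold lower than control at 24, 48 and 72 h. Groups did not overlap at any of the 4 times.

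SPRY1 relative to SPRY4 gave the same picture, lower by 9.84-fold, 6.96-fold, 2.35-fold and 6.67-fold (exact permutation p = 0.0286 each, adjusted 0.0429). SPRED1 relative to SPRY2 was likewise lower by 7.61-fold, 3.68-fold, 2.04-fold and 5.02-fold at the 4 times, with the same p.

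Between the genes that rose, the ratios moved less. SPRY4 to SPRY2 was lower by 1.49-fold at 48 h and 1.44-fold at 72 h (exact permutation p = 0.0286, adjusted 0.0429), with differences of -0.41 and -0.31 on the log2 scale at 12 and 24 h that did not pass (exact permutation p = 0.0571 and 0.143). ERRFI1 to SPRY2 differed from control only at 72 h among the 4 times, by -0.53 on the log2 scale (exact permutation p = 0.0286, adjusted 0.0429), while at 12, 24 and 48 h the log2 differences were 0.31, 0.10 and -0.18 (exact permutation p = 0.0571, 0.486 and 0.114). SPRED2 to SPRED1 passed at 24 h alone, where it was 1.40-fold lower (exact permutation p = 0.0286, adjusted 0.0429).

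**Figure D4:**
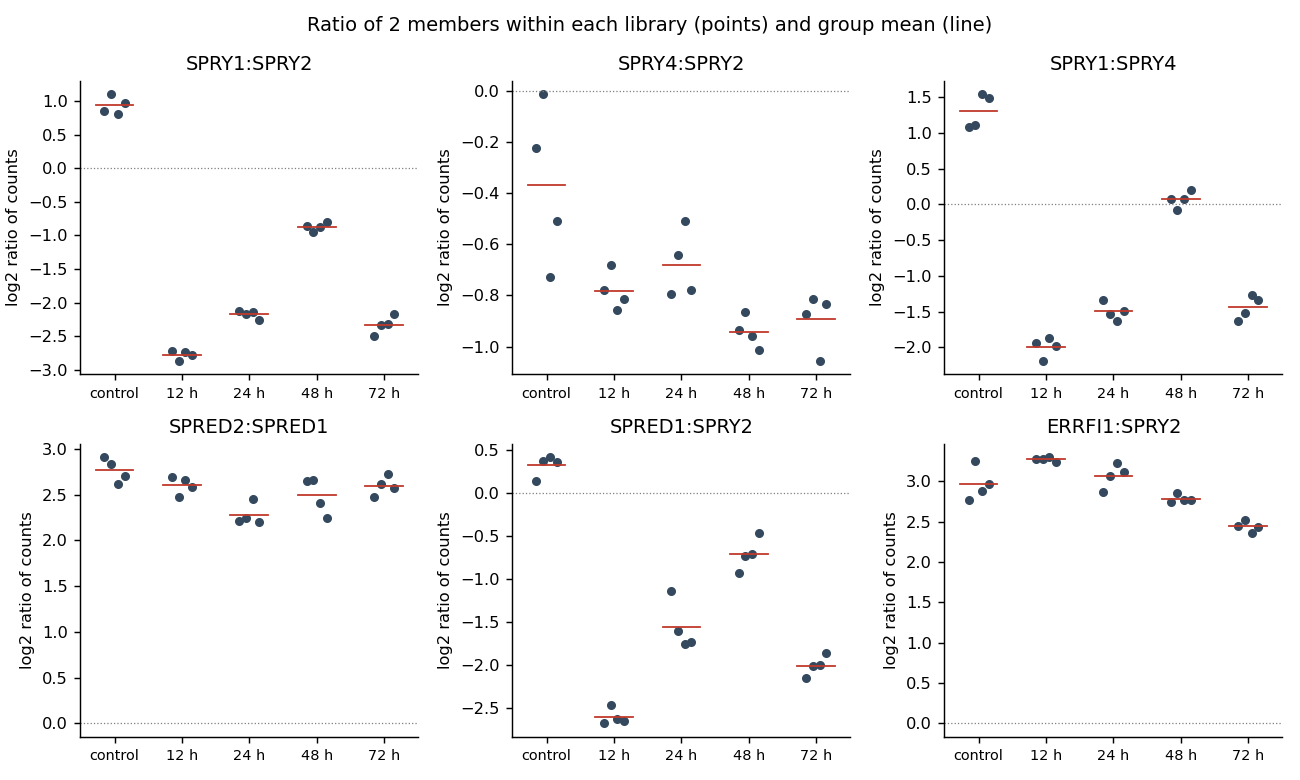
The log2 ratio of the counts of 2 members within each library (points, y axis with its own range per panel, dotted line at 0 for equal counts) and the mean of 4 libraries (line) in each group. SPRY1:SPRY2 was near 0.94 in control and below 0 in all treated libraries, and ERRFI1:SPRY2 stayed between 2 and 4 throughout.

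SPRED1 encodes the SPRED protein whose loss causes Legius syndrome and which tethers neurofibromin to the membrane. It measured 12.1, 12.9, 16.7 and 14.7 CPM in control, 19.3, 22.6, 20.1 and 21.3 CPM at 12 h and 23.8, 24.1, 22.3 and 25.5 CPM at 24 h. At 48 h the libraries read 16, 14.3, 19.6 and 20.8 CPM and at 72 h 18.7, 17.6, 17.1 and 18.0 CPM. The control and 48 h libraries overlapped, and the controls lay below the other 3 groups.

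The log2 fold changes of SPRED1 were 0.56 ± 0.11 (SE), 0.76 ± 0.11, 0.33 ± 0.11 and 0.34 ± 0.11 in order of time (edgeR adjusted p = 6.88e-05, 1.77e-06, 0.0156 and 0.00879), with the highest mean at 24 h (23.9 ± 1.30 CPM, SD, n = 4) rather than at 12 h (20.8 ± 1.42 CPM), a step that did not pass (0.20, edgeR adjusted p = 0.112). The step passed by library size (0.34, edgeR adjusted p = 0.01), by upper quartile (0.32, adjusted p = 0.0087) and with only the libraries compared (0.22, adjusted p = 0.0117). The 48 h call was lost without control replicate 1 (0.26, edgeR adjusted p = 0.0664), without EGF 48 h replicate 3 (0.27, adjusted p = 0.058) and without EGF 48 h replicate 4 (0.24, adjusted p = 0.0813), and with only the libraries compared (0.32, adjusted p = 0.0999). The authors' normalized values divide each count by a factor that varies with gene and library. Relative to the median factor over genes in each library, the SPRED1 factors averaged 1.25 in control and 0.770 at 48 h. Their spread over the libraries was larger than that of 93.4% of 11956 genes. With those factors the log2 fold changes of SPRED1 were 0.89, 1.09, 1.00 and 0.63 and all passed (largest edgeR adjusted p = 0.0284).

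SPRED2, the most abundant SPRED gene per kilobase in every group, changed by less. Its 4 libraries ranged from 90.8 to 102 CPM in control, from 125 to 128 CPM at 12 h, from 110 to 122 CPM at 24 h, from 90.9 to 104 CPM at 48 h and from 104 to 113 CPM at 72 h. Only the 48 h group overlapped with control. Its log2 fold changes were 0.41 ± 0.058 (SE), 0.28 ± 0.058, 0.046 ± 0.058 and 0.18 ± 0.058, with edgeR adjusted p-values of 1.34e-06, 2.28e-04, 0.544 and 0.01. Scaled by library size alone, SPRED2 no longer passed at 12, 24 or 72 h (0.12, 0.14 and 0.11), and the medians of all genes moved by -0.28, -0.14 and -0.076 under that scaling. The 72 h call was also lost with no filter beyond 1 count (0.18, edgeR adjusted p = 0.0599).

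SPRED3, a relative that lacks a functional KIT-binding domain, was at the edge of detection with 25 to 81 counts per library. It measured 1.26, 2.61, 1.62 and 1.78 CPM in control and 2.98, 2.72, 3.37 and 2.58 CPM at 12 h. It then measured 1.68, 2.66, 2.05 and 1.46 CPM at 24 h, 2.94, 3.18, 1.98 and 2.22 CPM at 48 h, and 3.12, 2.84, 2.79 and 2.75 CPM at 72 h. Only the 72 h libraries all lay above the controls. The log2 fold changes were 0.67 ± 0.21 (SE) at 12 h (edgeR adjusted p = 0.00689), 0.66 ± 0.21 at 72 h (adjusted p = 0.00933), 0.094 ± 0.22 at 24 h (adjusted p = 0.733) and 0.49 ± 0.21 at 48 h (adjusted p = 0.0632). The 48 h value passed without control replicate 2 (0.72, edgeR adjusted p = 0.00754), without EGF 48 h replicate 3 (0.60, adjusted p = 0.0297), with at least 10 counts in every library (0.51, adjusted p = 0.0462) and with a replicate block (0.50, adjusted p = 0.0435). The 12 h call was lost when scaled by library size (0.39) and the 72 h call with the authors' factors (0.50).

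Ranked per kilobase within a group, ERRFI1 was highest in control (21.0 ± 2.20 CPM per kb, SD, n = 4), followed by SPRED2 (18.5 ± 0.992), SPRY1 (5.40 ± 0.291), SPRY2 (3.68 ± 0.344), SPRED1 (1.71 ± 0.248), SPRY4 (1.32 ± 0.169) and SPRED3 (0.310 ± 0.097). At 12 h the order was ERRFI1 (292 ± 6.71 CPM per kb), SPRY2 (41.6 ± 1.62), SPRED2 (24.6 ± 0.248), SPRY4 (11.2 ± 0.651), SPRY1 (4.65 ± 0.246), SPRED1 (2.52 ± 0.172) and SPRED3 (0.497 ± 0.059). In control the libraries of ERRFI1 (17.8 to 22.7 CPM per kb) and SPRED2 (17.6 to 19.9 CPM per kb) overlapped, and at 12 h SPRY2 had passed SPRED2.

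The treated groups were also compared with one another, to see how the inhibitors moved after the 12 h level. From 12 to 24 h, 4 members fell and none rose (53.7% of all genes tested passed, 27.9% as higher and 25.9% as lower), ERRFI1 by 2.01-fold, SPRY2 by 1.77-fold, SPRY4 by 1.64-fold and SPRED3 by 1.49-fold (edgeR adjusted p = 8.15e-06, 1.41e-06, 5.73e-05 and 0.026). The SPRED3 call was lost when libraries were scaled by size (-0.43) or by upper quartile (-0.46) and without EGF 12 h replicate 3 (-0.50) or EGF 24 h replicate 1 (-0.51) or 4 (-0.46). By either of these scalings 3 members fell and SPRED1 rose, and the share of called genes that were higher went from 51.9% to 68.6% by library size and 66.1% by upper quartile. SPRED2 and SPRY1 did not pass at this step (-0.13 and -0.23, edgeR adjusted p = 0.0722 and 0.071). SPRED2 passed as lower by the DESeq2 Wald test (-0.15, adjusted p = 0.0163) and with DESeq2 size factors (-0.14, edgeR adjusted p = 0.0463). SPRY1 passed as lower with the authors' factors (-0.33, edgeR adjusted p = 0.0214) and without EGF 24 h replicate 4 (-0.30, adjusted p = 0.0374). By library size neither passed (edgeR adjusted p = 0.855 and 0.473).

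From 24 to 48 h, 5 members fell and none rose, where 50.2% of all genes tested passed, 25.9% as higher and 24.3% as lower. ERRFI1 was lower by 3.09-fold, SPRY4 by 3.01-fold and SPRY2 by 2.49-fold (edgeR adjusted p = 2.44e-08, 2.31e-09 and 2.59e-09), and SPRED1 and SPRED2 by 1.35-fold and 1.18-fold (adjusted p = 0.00158 and 0.00179). The SPRED1 fall was lost with the authors' factors (-0.089, edgeR adjusted p = 0.782), and that of SPRED2 with library size scaling (-0.079, adjusted p = 0.311), under which SPRED3 rose (0.54, adjusted p = 0.0345) and the share of called genes that were higher went from 51.5% to 71.8%. The SPRY1 difference between these times did not pass (-0.001 ± 0.11 SE on the log2 scale, edgeR adjusted p = 0.995).

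From 48 to 72 h, 3 members rose and none fell, where 35.7% of all genes tested passed, 17.9% in each direction. They were SPRY4 by 2.62-fold, SPRY2 by 2.51-fold and ERRFI1 by 1.99-fold (edgeR adjusted p = 3.6e-08, 3.84e-09 and 2.17e-05). For these 3 genes, every 48 h library was below every 24 h and every 72 h library. SPRED2 did not pass from 48 to 72 h (0.13, edgeR adjusted p = 0.0772). It passed as higher by the DESeq2 Wald test (0.16, adjusted p = 0.0166) and with DESeq2 size factors (0.16, edgeR adjusted p = 0.0477). It also passed with at least 10 counts in every library (0.15, edgeR adjusted p = 0.0358) and without EGF 48 h replicate 3 (0.16, adjusted p = 0.0482). By library size and upper quartile it did not (edgeR adjusted p = 0.606 and 0.155). Set against the mean of 24 and 72 h, the 48 h level of 4 members was lower (45.5% of all genes tested passed, 23.7% as higher and 21.8% as lower), with log2 differences of -1.49 for SPRY4, -1.32 for SPRY2, -1.31 for ERRFI1 and -0.19 for SPRED2 (edgeR adjusted p = 1.82e-09, 6.25e-10, 1.46e-07 and 0.00481). SPRED1 was at -0.22 and did not pass (edgeR adjusted p = 0.0526), though it did by DESeq2 (-0.24, adjusted p = 0.0487), with DESeq2 size factors (-0.24, edgeR adjusted p = 0.0448), with only the libraries compared (-0.22, adjusted p = 0.0426), with a replicate block (-0.23, adjusted p = 0.035) and in 6 of 20 fits without 1 library, and the SPRED2 value was lost with library size scaling (-0.063).

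The remaining pairs completed the course. At 48 h against 12 h, 4 members were lower and none higher (70.3% of all genes tested passed, 37.7% as higher and 32.5% as lower). At 72 h against 12 h, 5 members were lower (67.6% passed, 35.6% as higher and 32.0% as lower). By library size alone 3 members were lower in each of these pairs, SPRED2 being lost in both (-0.064 and -0.018, edgeR adjusted p = 0.371 and 0.818) and SPRY1 at 72 h, and the medians of all genes moved by 0.30 and 0.21. At 72 h against 12 h SPRED2 was also lost by upper quartile (-0.087, edgeR adjusted p = 0.134) and with the authors' factors (-0.098, adjusted p = 0.223). In that pair SPRED1 did not pass (-0.22, edgeR adjusted p = 0.0757). It passed as lower with only the libraries compared (-0.20, edgeR adjusted p = 0.0146) and without control replicate 3 or EGF 48 h replicate 2 (adjusted p = 0.0497 and 0.0475). At 72 h against 24 h, 1 member was higher and 2 were lower (40.2% passed, 20.6% as higher and 19.7% as lower). The single rise was SPRED3 (0.56 ± 0.21 SE, edgeR adjusted p = 0.0383; the call was lost without EGF 24 h replicate 1, 3 or 4 or any EGF 72 h replicate, at 0.44 to 0.58, and with no filter beyond 1 count, at 0.56), and the falls were ERRFI1 and SPRED1 (-0.42 ± 0.11 SE, edgeR adjusted p = 0.00296; -0.46, adjusted p = 0.144, with the authors' factors). Without EGF 24 h replicate 1, SPRY1 also passed as lower at 72 h than at 24 h (-0.25, edgeR adjusted p = 0.0464). SPRY1 and SPRED1 lay close to the threshold at 48 h against 12 h (-0.24 and -0.23, edgeR adjusted p = 0.0538 and 0.0554), and leaving out 1 of several libraries, controls among them, moved either past it, as did DESeq2 size factors (-0.26 and -0.25, edgeR adjusted p = 0.0368 and 0.0395), whereas by library size both were at 0.063 (adjusted p = 0.603 and 0.611).

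Other genes of the pathway were counted from lists that were chosen with earlier results of these data known. They are to be read against all genes tested, of which 32.9%, 29.2%, 24.0% and 30.6% passed as higher and 36.5%, 29.6%, 21.8% and 31.0% as lower at 12, 24, 48 and 72 h. Of 13 genes known as outputs of ERK, 13 rose by 12 h, 12 rose and 1 fell by 24 h, 10 rose and 2 fell by 48 h, and 12 rose and 1 fell by 72 h, with median log2 fold changes of 1.72, 1.89, 1.20 and 1.79. From 24 to 48 h, 12 of them fell and 1 rose, and from 48 to 72 h 11 rose and none fell, where 24.3% of all genes passed as lower in the first step and 17.9% as higher in the second. FOSL1, a subunit of AP-1, had the largest rise at each time, from 2.78 ± 0.736 CPM (SD, n = 4) to 248 ± 21.0 CPM at 12 h, with log2 fold changes of 6.47, 4.87, 3.19 and 5.06 (largest edgeR adjusted p = 6.14e-09). EGR1, an immediate early transcription factor, was higher at 12 h (0.60, edgeR adjusted p = 5.45e-04) and lower at 24 h (-1.25, adjusted p = 1.47e-07), 48 h (-0.52, adjusted p = 0.00417) and 72 h (-0.42, adjusted p = 0.0121). FOS, the founding AP-1 subunit, was lower at 48 h (-0.65, edgeR adjusted p = 0.0106) and higher at the other 3 times.

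Among the 25 core components from receptor to ERK, higher and lower members numbered 14 and 2 at 12 h, 12 and 6 at 24 h, 7 and 7 at 48 h, and 8 and 8 at 72 h, with medians of 0.21, 0.16, -0.026 and -0.11. The 7 of 25 in each direction at 48 h and the 8 of 25 (32.0%) at 72 h were near the shares of all genes. EGFR, the receptor for EGF, rose from 3474 ± 103 CPM (SD, n = 4) in control to 11752 ± 323 CPM at 12 h, and its log2 fold changes were 1.76, 1.16, 0.69 and 0.76 (largest edgeR adjusted p = 8.31e-09). ERBB2, the partner receptor HER2, was lower at 12, 24 and 72 h (-1.28, -0.83 and -0.97, largest edgeR adjusted p = 4.99e-05), with -0.25 at 48 h (adjusted p = 0.174).

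RASA1, a GTPase-activating protein that switches RAS off, had the largest core rise at 24 and 72 h (1.64 and 1.15, edgeR adjusted p = 2.21e-11 and 8.06e-09). The scaffold KSR1 had it at 48 h (0.82, edgeR adjusted p = 8.25e-04), when HRAS had the largest fall (-0.52, adjusted p = 0.0261). Of 9 genes whose products bind or modify these inhibitors, 6 were higher and 1 lower at 12 h, and 5, 4 and 6 were higher with none lower at 24, 48 and 72 h, which is 66.7%, 55.6%, 44.4% and 66.7% higher beside the shares of all genes given above. CAV1, the caveolar protein that binds Sprouty, had the largest rise at each time (2.01, 2.53, 2.19 and 1.92, largest edgeR adjusted p = 2.54e-18), and NEDD4, a ubiquitin ligase of Sprouty2, fell at 12 h (-0.55, adjusted p = 1.2e-05).

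**Figure D5:**
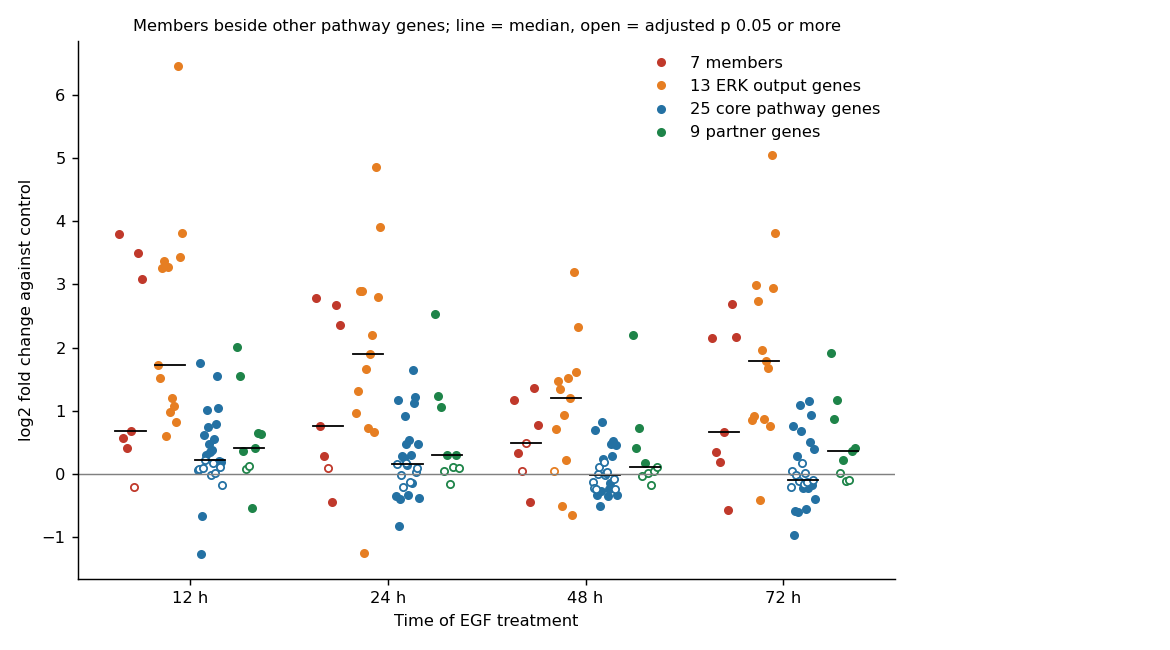
The log2 fold change against control (y axis) at each EGF time (x axis) of the 7 members beside 13 ERK output genes, 25 core pathway genes and 9 partner genes, with a point per gene (filled where the edgeR adjusted p was under 0.05) and a line at the median of each list. The medians of the ERK output genes were 1.20 to 1.89 and those of the core genes -0.11 to 0.21.

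Likeness of pattern was measured by Pearson's r of log2 CPM across the 20 libraries among 13880 genes of at least 1 CPM on average. The libraries fall into 5 groups that share treatment and scaling, so r is a description of shared group means. SPRY2 was most like ITGA2 (r = 0.995), THSD4 (0.994) and CD55 (0.994), SPRY4 most like DUSP7 (0.992), LIF (0.990) and PNP (0.989), and ERRFI1 most like PDE4B (0.995), OSMR (0.992) and SMURF1 (0.992). Among the members themselves, r was 0.982 for SPRY2 with SPRY4, 0.982 for ERRFI1 with SPRY4 and 0.975 for ERRFI1 with SPRY2.

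SPRED2 was most like PPFIA1 (r = 0.985), DEGS1 (0.980) and FBXW11 (0.979), and its r with ERRFI1 was 0.937. SPRED1 was most like ARHGAP12 (0.953), KIF2A (0.936) and B4GALT6 (0.936). SPRY1 was most like NPTN (0.907), RBM47 (0.901) and RAPGEF4 (0.892), with an r of -0.36 with SPRY2, and SPRED3 was most like EHD3 (0.875), B3GAT3 (0.846) and LMF2 (0.844).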

How the data were processed

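RNA of 20 MDA-MB-468 cultures was made into Lexogen Corall mRNA libraries and sequenced as single-end reads of 75 bp. The authors deposited 10 tables with identical contents in the columns used, holding estimated counts rounded to whole numbers and normalized values, a score from DESeq2 run through SARTools. The submitters' processing notes name hg38, and the aligner, counter and annotation are not given in the sources used here. The authors' fold changes and p-values in the tables were not used. The deposited expected counts were tested with edgeR 4.0.16 (TMM scaling, filterByExpr, robust quasi-likelihood F-test, 1 mean per group over all 20 libraries, Benjamini-Hochberg over 16522 genes, threshold 0.05). CPM values use TMM-scaled library sizes. Standard errors are the log2 fold change over the square root of F. Alternatives were DESeq2 1.42.0, other scalings and filters, a replicate block and leaving out each library. Exact permutation tests used SciPy 1.17.1. On simulated counts for 12 h against control over 16039 genes, 82 of 95 genes changed by 1 and 94 of 97 changed by 2 on the log2 scale were called, as were 15 of 15847 unchanged genes. Few genes were changed there, equally up and down, with the same dispersion for every gene. The simulation therefore does not give the error rates where most genes pass, as they did at 12 h. Replicates differed by more than sampling noise (chi-square per degree of freedom 3.53 to 57.5 in 30 pairs). Positions follow GENCODE 29 (58036 IDs matched) and promoters RefSeq on GRCh38.p14. The named genes were the 7 members, SPRY3, EGFR, the called gene with the largest rise and fall of each list at each time, the 3 genes most like each member, and genes whose exons overlap a member. The members, the lists and the tests were chosen with earlier results of these data known. Same-numbered libraries of different groups deviated together with r over 0.1 in 5 of 40 pairs (largest r 0.348). The paper states no pairing of the RNA cultures, and none was used in the main test. Depth limits SPRED3 most, and the p-values measure the spread between 4 cultures of 1 cell line.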

Additional observations from a re-analysis of the deposited data

Results flagged for a closer look

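Of 40 groups of 4 libraries tested for a value far from the rest (8 genes by 5 groups), 3 held one, where chance alone marks about 1 in 20. The highest SPRY2 library at 12 h, at 134 CPM, had a gap of 0.869 of the group's range. The lowest SPRY3 library at 12 h, at 5.28 CPM, had a gap of 0.952, and the lowest SPRY3 library at 48 h, at 13.6 CPM, a gap of 0.841.

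The response to EGF differed between time points for all 7 members with TMM scaling, by the test of the difference (edgeR adjusted p under 0.05), in 6 of 6 pairs of EGF times for ERRFI1, 5 for SPRY2, 5 for SPRY4, 3 for SPRED2, 2 for SPRED1, 2 for SPRED3 and 1 for SPRY1. Of all genes tested, 53.7% passed at 24 h against 12 h, 50.2% at 48 h against 24 h and 35.7% at 72 h against 48 h. The shares were 70.3% at 48 h against 12 h, 67.6% at 72 h against 12 h and 40.2% at 72 h against 24 h. At least 70.3% of all genes thus passed in 1 or more pairs, so a pass in some pair is not particular to the members. The SPRY1 pair was lost by library size (-0.16, edgeR adjusted p = 0.189) and by upper quartile (-0.23, adjusted p = 0.0509). The largest log2 difference was that of 48 h against 12 h for ERRFI1 (-2.63), SPRY4 (-2.31), SPRY2 (-2.14) and SPRED2 (-0.36). It was that of 24 h against 12 h for SPRED3 (-0.58), of 48 h against 24 h for SPRED1 (-0.43) and of 72 h against 12 h for SPRY1 (-0.37).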

How the results depend on the processing

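All log2 fold changes and calls of ERRFI1, SPRY2 and SPRY4 against control, between successive times and at 48 h against the mean of 24 and 72 h kept direction and side of the threshold in all 240 repeats for each gene. The counts of members called stayed within 1.5 times in these repeats, and the values of the ratios moved by less than 1 SD. Single calls of the other members changed, and not all of those changes are listed above. The alternatives for the other 3 pairs of times were added after seeing the data. Leaving out each library moved SPRY2 at 72 h against 24 h between -0.11 and 0.11 and SPRED3 at 72 h against 12 h between -0.072 and 0.058. SPRED3 at 72 h against 12 h was 0.20 with library size, 0.13 with upper quartile, 0.082 with at least 10 counts in every library and 0.0051 with only the libraries compared, and at 48 h against 12 h 0.11 with library size. At 48 h against 12 h SPRY1 was 0.063 and SPRED1 0.063 with library size, and SPRED1 was 0.11 with the authors' factors. With the authors' factors per gene, which could be computed for 11956 genes, fewer genes were tested and passed, namely 6338 at 24 h, 4332 at 48 h and 6559 at 72 h against control, 5837 for 24 h against 12 h, 4994 for 48 h against 24 h, 3209 for 72 h against 48 h and 4337 for 48 h against the mean of 24 and 72 h. With only the libraries compared, 9 of the 25 core genes passed at 48 h, against 14. Under library size and upper quartile scaling, neighbouring levels that differed numbered 1 for SPRY1 (0 before) and 2 for SPRED1 (1 before).

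None of the values that changed direction had passed the test. SPRY1 at 48 h against 24 h was 0.16 with library size, 0.062 with upper quartile, 0.035 with at least 10 counts in every library, 0.011 with only the libraries compared, and -0.12 to 0.095 with 1 library left out. SPRED1 at 72 h against 48 h was -0.075, -0.022 and -0.37 with library size, upper quartile and the authors' factors, and -0.074 to 0.10 with 1 library left out, and at 48 h against the mean of 24 and 72 h it was 0.14 with the factors. SPRED2 at 24 h against 12 h was 0.015 with library size. SPRED3 at 24 h against control was -0.049 with library size, -0.084 with the factors, and -0.084 to 0.33 with 1 library left out, and at 48 h against the mean of 24 and 72 h it was -0.011 to 0.22 with 1 left out. The cause was not tested. Library size scaling moved the median of all genes by -0.28 at 12 h.

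Same-numbered libraries deviated together with r over 0.1 in 5 of 40 pairs, and 8 of 20 libraries correlated best with their own number. With a replicate block, 4 more calls were made, SPRED1 at 48 h against the mean of 24 and 72 h (-0.23, edgeR adjusted p = 0.035), SPRED3 at 48 h against control (0.50, adjusted p = 0.0435), and SPRY1 and SPRED1 at 48 h against 12 h (-0.24 and -0.24, adjusted p = 0.0421 and 0.0396), and no other member call changed. A block on the ratio tests leaves too few libraries for their p to pass.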
